A study of Mus musculus with 15 samples.

Results

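The 9 genes Tdo2, Tat, Hpd, Hgd, Fah, Aass, Aadat, Hal and Sds encode enzymes of the liver that break down tryptophan, tyrosine, lysine, histidine and serine. They were taken as all probes whose symbol in the authors' normalized table is 1 of these names, which gave 10 of 41174 gene probes on the array: 2 for Tdo2 and 1 for each other gene. All 9 were among the 19328 genes that passed a filter on dim probes, and they were described across the study's groups of mouse liver.

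RNA of 15 frozen tissues from FVB/N mice was measured on 1-colour Agilent arrays. All mice carried LAP-tTA, a transactivator driven by a liver promoter, and all but the controls also carried TRE-MYC, so that MYC is made when doxycycline is absent and stops when it is given. Every mouse was kept on chow with 200 mg/kg doxycycline until more than 8 weeks of age. The 4 pre-tumor livers came from LAP-tTA x TRE-MYC mice at 4 to 5 weeks off doxycycline, with no tumor seen. The 4 tumor nodules came from such mice at 8 to 9 weeks off it. The 4 regression samples were tumor tissue from mice at 8 to 9 weeks off doxycycline that were then put back on it for 72 hours. The 3 control livers came from mice with LAP-tTA alone, for which the labels give no time off the drug. MYC shutoff and the drug itself cannot be told apart in the regression samples, and the labels do not say whether the samples of a group came from separate mice, so p-values measure the spread between these samples, which may be technical.

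Tdo2 (tryptophan dioxygenase) opens the ring of tryptophan and begins the kynurenine pathway. Tat (tyrosine aminotransferase), Hpd, Hgd and Fah act in that order on tyrosine and end in fumarate and acetoacetate, and inherited loss of Fah causes a liver disease through toxic intermediates. Aass carries out the first steps of lysine breakdown in mitochondria, and Aadat removes the amino group of aminoadipate, a later intermediate of that pathway, and also of kynurenine. Hal (histidine ammonia-lyase) starts histidine breakdown, and Sds (serine dehydratase) makes pyruvate from serine. In adult liver these enzymes are made mainly by hepatocytes, and Tdo2, Tat and Sds are textbook examples of genes induced by glucocorticoid hormones.

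In tumor nodules 8 of the 9 enzymes were lower than in control liver, and Hal was the exception. Called lower means a Benjamini-Hochberg adjusted p under 0.05 over all 19328 genes in limma's moderated test, two-sided, and 7.01% of all genes were called lower in this comparison. The 8 genes were also lower without overlap between the groups, as were 11.9% of all genes. The median log2 difference of the 9 genes was -3.70, against -0.18 for all genes. In bulk tissue, fewer cells of a type and less RNA per cell cannot be told apart. Each level below is the log2 processed signal of the gene's probe minus the 75th percentile of its array, so 0 is the signal at that percentile.

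Aass had the deepest fall of the 9 in fitted value. Its level was -1.26, -1.92, -0.70 and -2.56 in the 4 tumor nodules, against 5.73, 5.61 and 5.80 in the 3 control livers. The control livers lay within a narrow band, far above all tumors. The log2 difference was -7.32 ± 0.66 (SE; adjusted p = 1.54e-06, limma), which ranked 29 from the lowest of all genes, and the tumor signal was 0.625% of that of control liver.

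Tdo2 was at -1.14, -1.19, -3.48 and -1.55 in tumor nodules, against 5.18, 4.07 and 4.77 in control livers. The groups were far apart, and the lowest tumor value, that of tumor 3, was not well above background. The difference was -6.52 ± 0.66 (adjusted p = 4.75e-06, limma). The other Tdo2 probe gave -8.27 ± 0.67 (adjusted p = 7.63e-07 over 29877 probes, limma), with 1 of 4 tumor arrays well above background. Both probes were called lower, and since the second was mostly not above background in tumors, its fitted size is not a measured one.

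Aadat was well above background on 0 of 4 tumor arrays, so that its tumor level is uncertain. Its measured level was -5.09, -5.10, -1.99 and -4.10 on the tumor arrays, against 2.27, 1.80 and 2.67 in control livers. The mean was -4.07 ± 1.47 in tumor nodules (SD, n = 4), against 2.25 ± 0.44 in control livers (SD, n = 3). Each tumor array was given the higher of its own Aadat signal and the lowest signal well above background of any probe there. With these values Aadat was 35.4-fold lower in tumors (adjusted p of the fit 4.46e-06, limma). A higher floor could give a smaller fold, so this is a floored estimate and not a strict bound. With normexp background correction, an offset of 50 and quantile normalization together (called normexp from here on), the log2 differences were smaller, -4.86 for Aass, -3.88 for Tdo2 and -2.13 for Aadat, all still called. With quantile normalization alone they were -7.20, -6.33 and -6.36. The floored estimate for Aadat thus applies to the processed signals and not to normexp. The authors' table gave -3.49 for Aadat.

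Promoter windows are shown for the 3 genes with the deepest falls and for Hal, whose tumor level was not called different from control. Each is the 250 bases before the RefSeq start on GRCm38.p6, 5′ to 3′ on the gene's strand, and capitals mark matches on either strand to the motifs listed after them. They lie at chr3:81975729-81975978 (minus strand), chr6:23132987-23133236 (minus strand), chr8:60505874-60506123 (plus strand) and chr10:93488518-93488767 (plus strand).
Tdo2: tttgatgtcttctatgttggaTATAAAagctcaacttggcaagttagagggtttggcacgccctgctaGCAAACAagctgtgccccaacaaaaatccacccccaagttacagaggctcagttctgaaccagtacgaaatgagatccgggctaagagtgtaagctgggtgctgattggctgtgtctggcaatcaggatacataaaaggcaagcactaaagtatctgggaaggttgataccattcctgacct
Aass: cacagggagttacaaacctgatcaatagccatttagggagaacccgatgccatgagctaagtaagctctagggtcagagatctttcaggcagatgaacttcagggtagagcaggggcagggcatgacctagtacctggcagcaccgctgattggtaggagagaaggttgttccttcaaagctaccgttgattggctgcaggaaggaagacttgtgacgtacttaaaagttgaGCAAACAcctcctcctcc
Aadat: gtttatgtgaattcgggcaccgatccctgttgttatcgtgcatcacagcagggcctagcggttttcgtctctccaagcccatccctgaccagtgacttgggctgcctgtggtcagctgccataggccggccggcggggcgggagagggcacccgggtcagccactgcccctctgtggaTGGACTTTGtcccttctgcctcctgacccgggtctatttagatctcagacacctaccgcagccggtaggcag
Hal: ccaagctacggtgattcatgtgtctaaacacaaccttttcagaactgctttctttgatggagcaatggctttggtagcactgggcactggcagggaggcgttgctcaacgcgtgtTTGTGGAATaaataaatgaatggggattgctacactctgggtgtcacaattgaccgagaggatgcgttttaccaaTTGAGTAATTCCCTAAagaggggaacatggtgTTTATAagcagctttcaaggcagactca

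The motifs searched, on both strands, were TGTTCT (part of the glucocorticoid receptor site), TGACCTTTG and CAAAGTCCA (HNF4), GTTAAT (part of the HNF1 site), TTGCGCAA and TTNNGNAAT (C/EBP), TGTTTGC (FOXA), CACGTG (E-box) and TATAAA. A RefSeq window was at hand for 8 of the 9 genes, all but Sds. The FOXA letters stood in the windows of Tdo2 and Aass, and in 4.30% of all 32851 windows. CAAAGTCCA stood in that of Aadat, and in 0.384% of all windows. Hal held TTNNGNAAT at 3 places, with 2 of them overlapping on opposite strands, and the motif was in 10.2% of all windows. TATAAA was found in Tdo2, Hgd and Hal, and in 12.4% of all windows, but only in Hal did it lie 28 to 23 bases before the start. The other motifs matched 0 of the 8 windows, among them TGTTCT, which 16.1% of all windows held. A match is a description of letters and no site of binding.

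The tyrosine enzymes fell together, by less than Aass and Tdo2 in fitted value. Tat was at 1.07, 0.77, 0.75 and 0.50 in tumor nodules, against 4.94, 3.54 and 5.33 in control livers. The tumors were close to each other and the groups did not overlap. The difference was -3.83 ± 0.71 (adjusted p = 0.00118, limma).

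Hpd, which converts the product of Tat to homogentisate, was at 4.03, 2.61, 4.88 and 1.78 in tumor nodules, against 7.81, 6.05 and 6.80 in control livers. Tumors varied more than controls, without overlap, and the difference was -3.56 ± 0.68 (adjusted p = 0.00165, limma). Hgd, which opens the ring of homogentisate, was at -0.13, -1.36, 1.53 and -1.01 in tumor nodules, against 2.78, 2.11 and 2.33 in control livers. Tumor 3 came within 1 log2 unit of the lowest control, and the difference was -2.65 ± 0.59 (adjusted p = 0.00493, limma). Fah, the last enzyme of the pathway, was at 1.95, 1.26, 2.96 and 0.49 in tumor nodules, against 4.92, 3.63 and 4.25 in control livers. Its difference was -2.60 ± 0.53 (adjusted p = 0.00280, limma), with tumor 3 again the highest tumor. The signal of tumors as a share of control liver was 7.03% for Tat, 8.47% for Hpd, 15.9% for Hgd and 16.5% for Fah.

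With normexp Hgd differed by -1.44 and Sds by -2.36, both called. Sds was at -0.28, -0.30, 0.43 and -0.91 in tumor nodules, against 4.61, 3.26 and 2.42 in control livers. The groups were separate, and the difference was -3.70 ± 0.73 (adjusted p = 0.00205, limma). Hal was at 1.30, 0.94, 1.23 and 0.18 in tumor nodules, against 2.14, 1.21 and 1.89 in control livers. The groups overlapped, and the difference was -0.84 ± 0.42 (adjusted p = 0.212, limma). On each of the 3 slides that held arrays of both groups, all 9 genes were lower on the tumor array, with a difference for Aass of -8.16 to -6.43 and for Hal of -1.03 to -0.91.

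**Figure D1:**
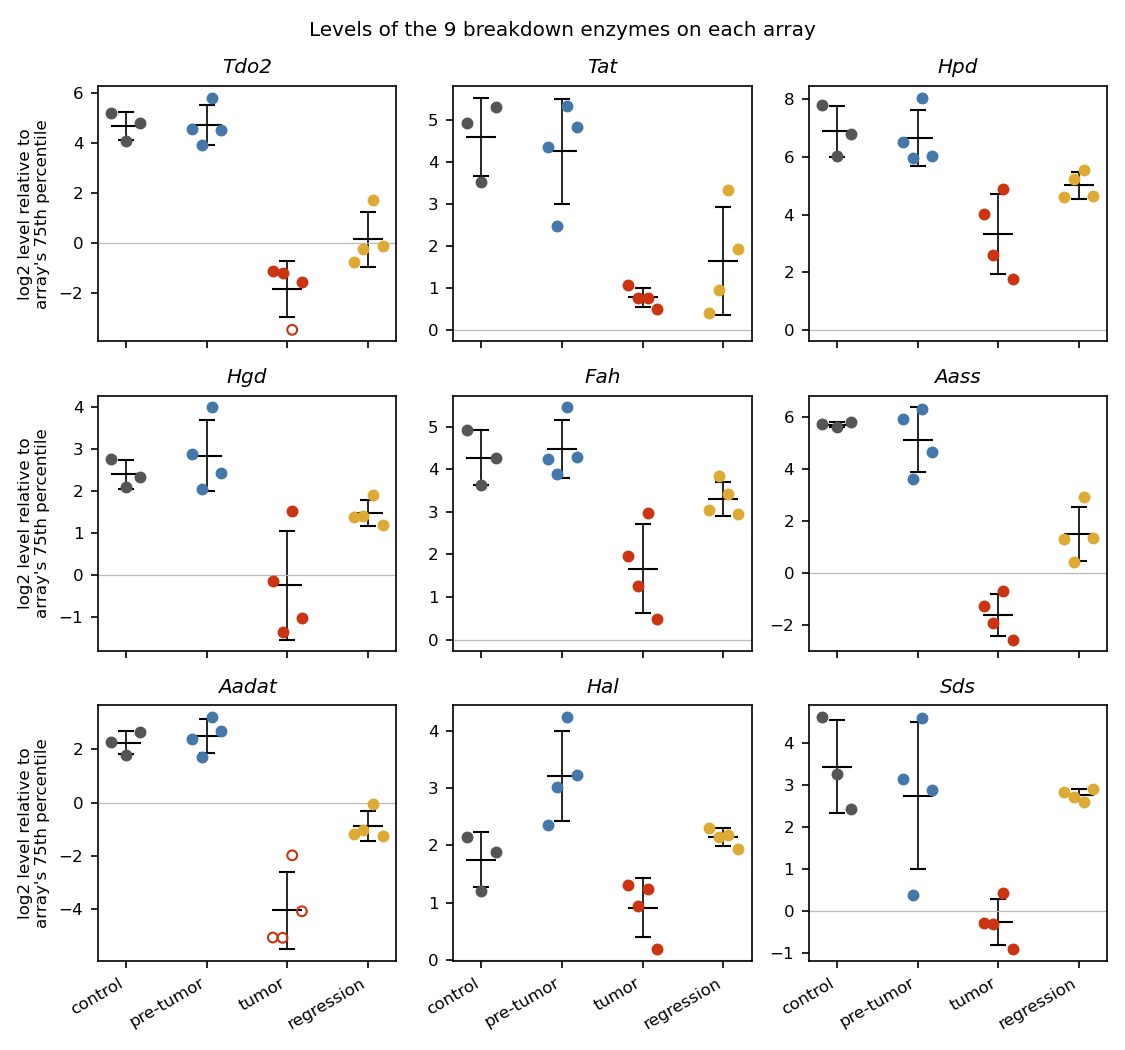
Level of each of the 9 genes (log2 processed signal minus the 75th percentile of the array, vertical axis) on each array, by stage (control n = 3, pre-tumor, tumor and regression n = 4 each). Points are arrays, open points were not well above background, and bars are the mean ± SD. Tumor arrays lie below all control arrays in every panel except Hal, and the regression arrays of Tdo2, Aass and Aadat lie between tumor and control.

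Hepatocyte markers moved with the fall. Of the 14 hepatocyte markers fixed for this work 13 were tested, and 12 of them were lower in tumors than in control liver, with a median log2 difference of -1.98. The linear levels of the 7 of them with a value on every array summed to 184 to 816 in tumor nodules, against 1280 to 1630 in control livers, in units of the signal at the array's 75th percentile. Markers of other cells moved as well. All 7 markers of dividing cells were higher in tumors, with sums of up to 172 in tumor nodules, against up to 4.63 in control livers, and no overlap. The 8 endothelial markers summed to 3.19 to 5.29 in tumor nodules, against 9.09 to 16.8 in control livers, and the 9 markers of stellate cells and fibroblasts to 94.8 to 202 in tumor nodules, against 35.1 to 86.1 in control livers. The 4 neutrophil markers with a value on every array summed to 0.836 to 1.91 in tumor nodules, against 2.43 to 4.02 in control livers. Marker by marker, 3 of 8 for endothelium were called lower, 4 of 9 for stellate cells and fibroblasts higher, and 0 of 5 for neutrophils either way (limma). Of 9 macrophage markers 2 were lower, Clec4f and Marco, and 3 higher, C1qa, Cd5l and Cd68. The part of these cells in the fall of the 9 genes was not tested. On the log2 scale used here 0 is the signal at the 75th percentile and not absence, so the hepatocyte markers do not test a sample's label.

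The 9 genes were also set against the mean of those 7 hepatocyte markers, a scaling chosen after seeing the data. On that scale the median of all genes in tumor minus control moved to 2.10, with 1.5% of all genes called lower and 64.9% called higher. There 4 of the 9 were lower in tumors than in control liver, namely Aass (-5.04 ± 0.60, adjusted p = 9.65e-06, limma), Tdo2 (-4.24 ± 0.79, adjusted p = 0.000325), Aadat (-4.04 ± 0.55 as fitted, adjusted p = 2.97e-05) and Hpd (-1.28 ± 0.51, adjusted p = 0.0365). Hgd, at -0.37, and Fah, at -0.32, were close to 0, with adjusted p of 0.450 and 0.464. Hal was higher in tumors by 1.44 ± 0.41 (adjusted p = 0.00631), less than the median of all genes. Tat and Sds were at -1.55 and -1.42, with adjusted p of 0.0752 and 0.0781. A gene at 0 on this scale fell as much as the mean of the hepatocyte markers.

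**Figure D2:**
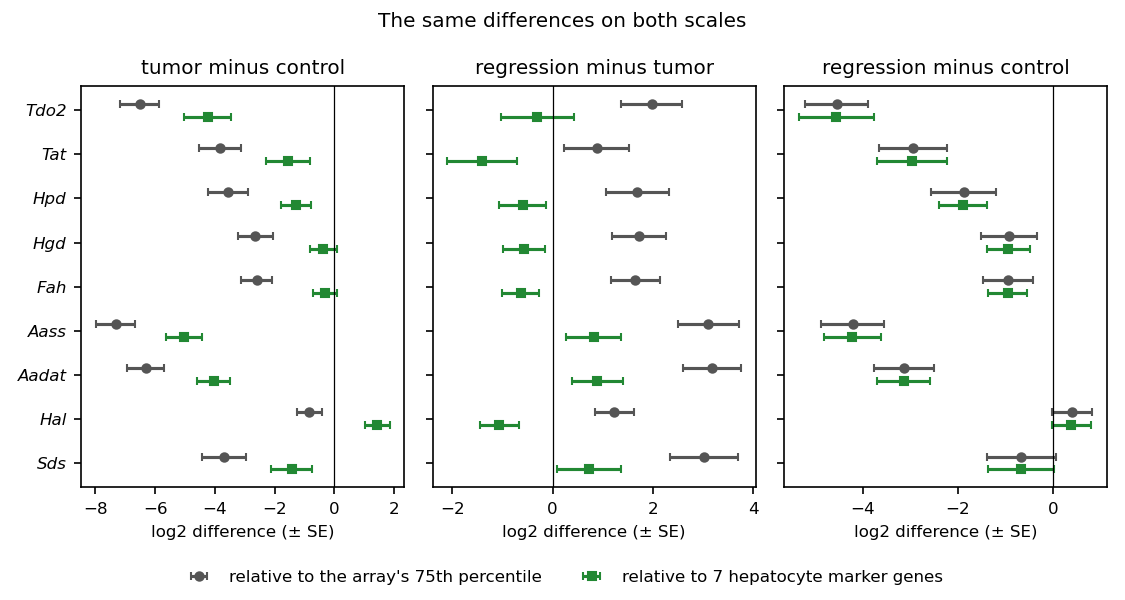
Log2 differences (horizontal axis, ± SE) of the 9 genes in 3 comparisons, on the array's 75th percentile scale (circles) and relative to the mean of 7 hepatocyte markers (squares). Tumor minus control shrinks on the marker scale, where Aass stays at -5.04 and Hal turns to 1.44; regression minus control is nearly the same on both scales. The Aadat values in tumors were not well above background.

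Pre-tumor liver, at 4 to 5 weeks off doxycycline and without a tumor, had 0 of the 9 genes called different from control liver, and 1, Hal, had an unadjusted p under 0.05 (limma). The percentage of all genes called was 0% lower and 0% higher in this comparison, and the median difference of the 9 genes was 0.02, against -0.03 for all genes. Hal was at 2.36, 3.03, 4.25 and 3.24 in pre-tumor livers, against 2.14, 1.21 and 1.89 in control livers. All pre-tumor values lay above all control values, and the difference was 1.47 ± 0.42 (unadjusted p = 0.00328, adjusted p = 1, limma), which does not pass. Higher values without overlap were found in 2.03% of all genes here. The 6 genes of histidine breakdown or use ran between 0.41 and 1.47, none called, with Amdhd1, the third enzyme of that pathway, at 1.38 ± 0.51 (adjusted p = 1). Aass was at 5.94, 3.60, 6.33 and 4.64 in pre-tumor livers, a wider spread than the 5.61 to 5.80 of control livers. Sds was at 3.15, 0.37, 4.58 and 2.87 in pre-tumor livers, and pre-tumor 2 lay below the lowest control, 2.42.

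Set against pre-tumor liver, tumor nodules were lower in all 9 genes, where 9.23% of all genes were called lower, and the median difference was -3.33, against -0.13 for all genes. For 8 of the 9 genes, all but Sds, the groups did not overlap, as for 9.6% of all genes in this direction. These values share the tumor arrays with the comparison to control liver. Hal, at 0.91 ± 0.51 in tumor nodules and 3.22 ± 0.78 in pre-tumor livers (SD, n = 4 each), was lower by a log2 difference of -2.31 ± 0.39 (adjusted p = 0.000497, limma). With the same floor Aadat was 42.4-fold lower in tumors (adjusted p of the fit 8.63e-07). That estimate applies to the processed signals only, and among 28 alternatives the log2 difference was as small as -2.23. Aass differed by -6.74 ± 0.61, Tdo2 by -6.53 ± 0.61, and the tyrosine enzymes between -3.49 (Tat) and -2.80 (Fah). Sds differed by -3.01 ± 0.68 (adjusted p = 0.00443), but its groups overlapped, since pre-tumor 2 lay at 0.37 and tumor 3 at 0.43. Relative to the 7 hepatocyte markers, where 1.92% of all genes were called lower, 3 of the 9 were lower, namely Aass (-4.46), Aadat (-4.29) and Tdo2 (-4.25), and Hal differed by -0.03 (adjusted p = 0.942).

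After 72 hours back on doxycycline, 7 of the 9 genes were higher than in tumor nodules, where 8.45% of all genes were called higher. For 5 of the 9, Tdo2, Aass, Aadat, Hal and Sds, the groups did not overlap, as for 10.9% of all genes in this direction. The median difference of the 9 genes was 1.72, against -0.12 for all genes. Aadat was at -1.19, -1.03, -0.07 and -1.25 in regression samples, well above background on 4 of 4 arrays. With the same floor on tumor arrays it was 4.05-fold higher than in tumors (adjusted p of the fit 0.00142, limma). This estimate applies to the processed signals only, since normexp gave a log2 difference of 0.44 (adjusted p = 0.128, limma). Aass was at 1.30, 0.44, 2.92 and 1.36 in regression samples, all above every tumor nodule, and differed from tumors by 3.11 ± 0.61 (adjusted p = 0.00222). Sds was at 2.84, 2.72, 2.58 and 2.90 in regression samples, a tight group well above all tumors, with a difference of 3.02 ± 0.68 (adjusted p = 0.00561).

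The other increases were smaller. Tdo2 was at -0.78, -0.26, 1.72 and -0.13 in regression samples and differed from tumors by 1.98 ± 0.61 (adjusted p = 0.0341, limma). Regression 3 was its highest sample, and the groups did not overlap. Hal was at 2.30, 2.15, 2.19 and 1.93 in regression samples and differed by 1.23 ± 0.39 (adjusted p = 0.0420). Hgd (1.72 ± 0.54, adjusted p = 0.0406) and Fah (1.65 ± 0.49, adjusted p = 0.0310) were called too, although tumor 3 overlapped the regression samples in both. Hpd (1.69 ± 0.63, adjusted p = 0.0867) and Tat (0.88 ± 0.65, adjusted p = 0.476) did not pass.

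With normexp, 5 of the 9 genes were higher, and Tdo2 (0.58, adjusted p = 0.241, limma), Aadat (0.44, adjusted p = 0.128) and Hgd (0.82, adjusted p = 0.0545) were not among them, while Hpd was (1.72, adjusted p = 0.0240). Hpd was also called with quantile normalization (1.95, adjusted p = 0.0193), in the authors' table (1.83, adjusted p = 0.0150), with the replicate block (adjusted p = 0.0249) and without tumor 3 (2.21, adjusted p = 0.0232). Aass was at 1.37 and Sds at 1.76 with normexp, and in the authors' table Tdo2 was at 1.09 (adjusted p = 0.0620) and Aadat at 1.03.

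Markers of several cell types moved in the same comparison. All 13 tested hepatocyte markers were higher in regression samples than in tumors, with a median difference of 2.23, and the 7 summed ones reached 1550 to 1920 in regression samples, against 184 to 816 in tumor nodules. All 7 markers of dividing cells were lower in regression samples, with a median difference of -4.25. Of the markers of other cells, 6 of 9 for macrophages, 6 of 8 for T and NK cells, 6 of 8 for endothelium and 6 of 9 for stellate cells and fibroblasts were higher. The part of these cells in the result was not tested.

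Relative to the 7 hepatocyte markers the median of all genes in regression minus tumor moved to -2.41, with 0.507% of all genes called higher and 85% called lower. There 0 of the 9 genes were called higher (limma) and 1, Hal, was called lower, at -1.06 ± 0.38 (adjusted p = 0.0177), which is above that median. On that scale Aadat was at 0.89 (adjusted p = 0.110), Aass at 0.82 (adjusted p = 0.170), Sds at 0.73 (adjusted p = 0.280), Tdo2 at -0.31 (adjusted p = 0.690) and Tat at -1.41 (adjusted p = 0.0666). On the 75th percentile scale the count of 7 was 4 with the slide as a block, and to 3 or 4 without tumor 1, 2 or 4 or regression 2, 3 or 4. Aass, Aadat and Sds were called in each fit that left out 1 array.

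Regression samples were lower than control liver in 4 of the 9 genes, with 3.27% of all genes called lower. Tdo2 averaged 0.14 ± 1.09 in regression samples and 4.67 ± 0.56 in control livers (SD, n = 4 and 3), a difference of -4.54 ± 0.66 (SE; adjusted p = 0.000351, limma) that ranked 30 from the lowest of all genes. Aass averaged 1.50 ± 1.03 in regression samples and 5.71 ± 0.10 in control livers (SD), a difference of -4.21 ± 0.66 (SE; adjusted p = 0.000634). Aadat differed by -3.13 ± 0.63 (adjusted p = 0.00468), or by -1.69 with normexp. Tat was at 0.40, 0.94, 3.34 and 1.93 in regression samples, against 4.94, 3.54 and 5.33 in control livers, and differed by -2.95 ± 0.71 (adjusted p = 0.0153). Regression 3 came close to the lowest control, and the call for Tat is lost without control 1, control 3, regression 1 or regression 2 (adjusted p up to 0.0810), with the slide as a block (-2.92, adjusted p = 0.0524) and without the 4 arrays of highest E1A spike-in signal (adjusted p = 0.0968).

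The hepatocyte scaling could change little here, since the markers themselves hardly differed between these groups. It is thus no separate check of the 4 calls. Of the 13 hepatocyte markers 0 were called between regression samples and control liver (limma; 1, Ttr, had an unadjusted p under 0.05), with a median difference of 0.01, and relative to the 7 markers, where 1.67% of all genes were called lower, the same 4 genes were lower, Tdo2 by -4.55, Aass by -4.22, Aadat by -3.14 and Tat by -2.96 (adjusted p = 0.00305, 0.000771, 0.00344 and 0.0347, limma). Regression samples also differed from control liver in other cells. The 9 macrophage markers summed to 174 to 356 in regression samples, against 23.1 to 46.1 in control livers, and the 9 markers of stellate cells and fibroblasts to 142 to 460 in regression samples, against 35.1 to 86.1 in control livers. Of the macrophage markers 6 were called higher and 1, Marco, lower (limma), and of the stellate and fibroblast markers 5 were called higher. The part of these cells in the result was not tested.

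The remaining 5 genes were not called different from control liver. Their log2 differences between regression samples and control liver were -1.88 ± 0.68 for Hpd (adjusted p = 0.107, limma), -0.95 ± 0.53 for Fah (adjusted p = 0.285), -0.93 ± 0.59 for Hgd (adjusted p = 0.349), -0.67 ± 0.73 for Sds (adjusted p = 0.614) and 0.40 ± 0.42 for Hal (adjusted p = 0.608). Hpd and Hgd were lower without overlap, as were 14.9% of all genes. As a share of the log2 fall in tumors, regression samples had regained 81.8% for Sds, 64.9% for Hgd, 63.3% for Fah, 50.4% for Aadat, 47.4% for Hpd, 42.5% for Aass, 30.4% for Tdo2 and 23.0% for Tat. Hal, whose fall was not called, is left out. These ratios of means carry no error, and the rise was not called for Hpd or Tat. They depend on the processing: with normexp Tdo2 fell by -3.88 and rose by 0.58, and Aadat fell by -2.13 and rose by 0.44. The Aadat share rests on tumor values below background. Set against pre-tumor liver, with 4.93% of all genes called lower, the same 4 genes were lower in regression samples, Tdo2 by -4.55, Aass by -3.62, Aadat by -3.39 and Tat by -2.61, and Sds differed by 0.01 ± 0.68 (adjusted p = 0.994). The call for Tat there is lost without pre-tumor 3, pre-tumor 4, regression 1 or regression 2 (adjusted p of 0.0502 to 0.0657) and without the 4 E1A arrays (adjusted p = 0.173). Hgd and Hal were called lower as well with normexp (adjusted p = 0.0282 and 0.0250) and in the authors' table (adjusted p = 0.0389 and 0.0275).

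The order of levels over the groups thus took several forms. Tdo2, Aass and Aadat were lowest in tumors, intermediate in regression samples and highest in pre-tumor and control livers, and only the last pair of neighbours was not called different. For Tat, tumors and regression samples were both below the livers and were not called different from each other. For Hgd, Fah and Sds, tumors were below all other groups, and regression samples were not called different from either kind of liver. Against pre-tumor livers, regression samples were nonetheless lower without overlap for Hgd (-1.37, adjusted p = 0.133, limma) and Fah (-1.15, adjusted p = 0.165). Sds, at 0.01, overlapped. The rise from tumors to regression samples lost its call in 14 of 28 alternatives for Hgd, 12 for Hal, 9 for Tdo2 and 8 for Fah. It lost its call in 2 for Aadat and in 1 each for Aass and Sds. It changed sign in 1 alternative each for Hgd, Hal, Tdo2 and Fah. Hpd was lower in tumors than in both kinds of liver, and its regression samples were not called different from any group on the 75th percentile scale, although they were called higher than tumors in the 5 settings given above, and lower than pre-tumor livers with the replicate block (adjusted p = 0.0368, limma). The rise of Hpd from tumors to regression samples was 1.69, against 1.72 for Hgd and 1.65 for Fah. These genes are thus split by the threshold and not by the size of their rise. Hal was highest in pre-tumor livers and lowest in tumors, with control livers called different from no group.

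The design also allows the difference between tumors with MYC on and after its shutoff to be set against that between liver with MYC and without it. This difference of differences is tumor minus regression less pre-tumor minus control, and 4.03% of all genes were called lower by it. Its 2 parts rest on different designs. In tumors MYC was stopped by 72 hours of doxycycline, while the control livers lacked TRE-MYC and have no stated time off the drug. Drug, genotype and time thus cannot be told apart from MYC in it. Of the 9 genes 2 were called, Aadat at -3.44 ± 0.86 (adjusted p = 0.0245, limma) and Hal at -2.70 ± 0.58 (adjusted p = 0.0114). Hal was lower in tumors than in regression samples, and higher in pre-tumor than in control liver in value. The other 7 lay between -2.53 (Aass, adjusted p = 0.111) and -0.54 (Tat, adjusted p = 0.870), against a median of 0.18 for all genes. Relative to the hepatocyte markers neither was called, with Aadat at -1.15 (adjusted p = 0.177) and Hal at -0.41 (adjusted p = 0.497). Aadat was not called with normexp (-0.55, adjusted p = 0.269) or in the authors' table (-1.15, adjusted p = 0.0729).

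Other genes of these pathways moved as well. Of 34 further genes of tryptophan, tyrosine, lysine, histidine and serine or threonine metabolism, 15 were lower and 3 higher in tumors than in control liver, with a median difference of -1.30, where 7.01% of all genes were called lower and 9.38% higher. In the kynurenine pathway Kmo, which hydroxylates kynurenine, differed by -4.97 ± 0.50 (adjusted p = 4.46e-06, limma), Kyat3 by -3.01 ± 0.52 (adjusted p = 0.000764), Afmid by -2.25 ± 0.53 (adjusted p = 0.00715) and Ido2 by -1.80 ± 0.42 (adjusted p = 0.00650). Kynu, which cleaves kynurenine, was at -0.97 (adjusted p = 0.0899). Around the tyrosine enzymes, Gch1, which starts the synthesis of tetrahydrobiopterin, differed by -2.63 ± 0.50 (adjusted p = 0.00156), and Gstz1, the enzyme between Hgd and Fah, by -1.85 ± 0.36 (adjusted p = 0.00193). With Gstz1, each enzyme from tyrosine to fumarate was lower in tumors.

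In lysine breakdown the next enzyme after Aass in the pathway, Aldh7a1, was at -1.12 ± 0.52 (adjusted p = 0.172, limma). Gcdh differed by -1.68 ± 0.39 (adjusted p = 0.00700), while Phykpl, an enzyme of hydroxylysine breakdown, was higher by 1.92 ± 0.34 (adjusted p = 0.000851). In histidine breakdown Hal was followed by Uroc1, at -4.48 ± 0.67 (adjusted p = 0.000197), Amdhd1, at -1.32 ± 0.51 (adjusted p = 0.0964), and Ftcd, at -1.27 ± 0.37 (adjusted p = 0.0281). Next to Sds, the glyoxylate aminotransferase Agxt differed by -3.72 ± 0.40 (adjusted p = 8.89e-06) and Agxt2 by -3.28 ± 0.43 (adjusted p = 6.21e-05). Sdsl, the serine dehydratase-like gene, was at -0.64 ± 0.48 (adjusted p = 0.419), and Gcat, which acts in threonine breakdown, was higher by 1.45 ± 0.44 (adjusted p = 0.0317). Kyat1, which transaminates kynurenine, was the third gene that was higher, by 1.53 ± 0.36 (adjusted p = 0.00767).

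In regression samples against tumors, 7 of these 34 genes were higher and 3 lower, where 8.45% of all genes were called higher and 8.35% lower. Uroc1 differed by 3.61 ± 0.62, Agxt by 2.96 ± 0.37, Agxt2 by 2.76 ± 0.40, Kmo by 2.53 ± 0.46 and Amdhd1 by 1.62 ± 0.48, with Gstz1 also called (adjusted p between 9.33e-05 and 0.0334, limma). The 3 that were lower, Phykpl (-2.32), Gcat (-1.75) and Kyat1 (-1.30), were those that were higher in tumors. Against control liver 5 of the 34 were lower in regression samples, where 3.27% of all genes were, among them Kyat3 (-3.84 ± 0.52), Kmo (-2.44 ± 0.50), Gcdh (-1.49 ± 0.39) and Ido2 (-1.47 ± 0.42), with adjusted p between 0.000249 and 0.0403. Thus 5 of 12 kynurenine genes were lower in regression samples with Tdo2 and Aadat counted, and 0 of 6 histidine genes were (limma; 1, Hnmt, had an unadjusted p under 0.05).

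**Figure D3:**
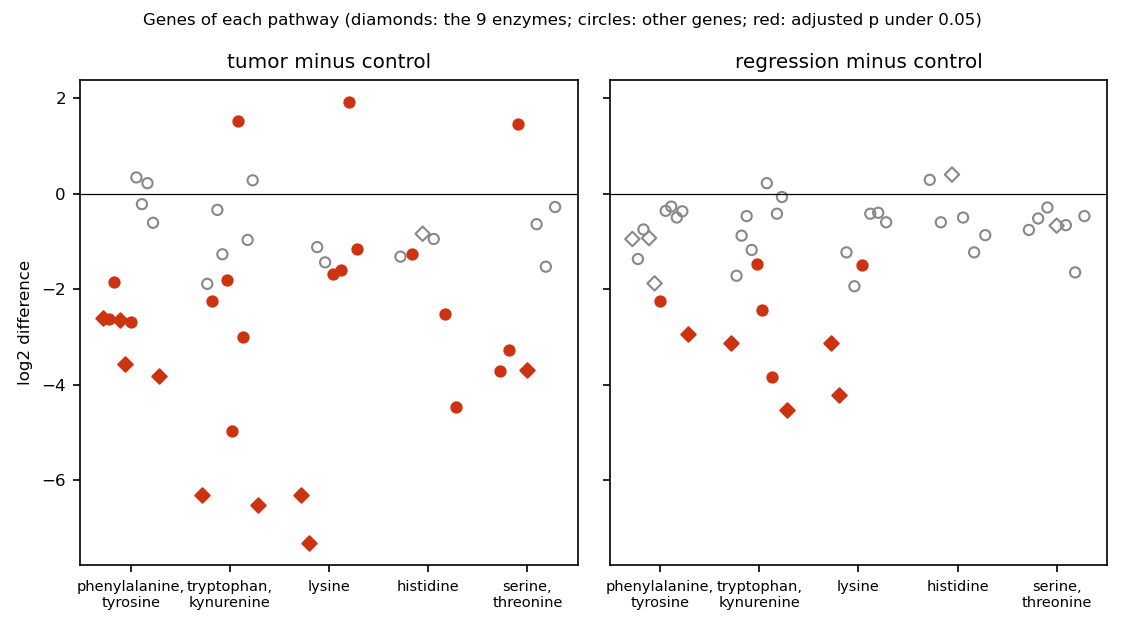
Log2 difference (vertical axis) of each gene of 5 pathway lists in tumor minus control and in regression minus control. Diamonds are the 9 enzymes, circles the other 34 genes, red marks adjusted p under 0.05, and Aadat appears under both tryptophan and lysine. In tumors most red points lie below 0; in regression samples red points remain in the first 3 lists and none lies in the histidine and serine lists.

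Of 9 transcription factors that act on such genes in liver, 2 were lower in tumors than in control liver, Foxa1 by -2.05 ± 0.64 (adjusted p = 0.0371, limma) and Hnf4a by -1.32 ± 0.40 (adjusted p = 0.0342). Both were also lower in regression samples, Foxa1 by -3.38 ± 0.64 (adjusted p = 0.00279) and Hnf4a by -1.62 ± 0.40 (adjusted p = 0.0190). Nr3c1, the glucocorticoid receptor, looked at after the values were known, was at -0.33 ± 0.39 in tumors against control liver (adjusted p = 0.639). Of 7 other glucocorticoid-responsive genes, 1 was lower in tumors, Tsc22d3 (-1.38 ± 0.45, adjusted p = 0.0467), and 1 higher, Igfbp1 (4.32 ± 1.41, adjusted p = 0.0491, with 1 array left out as an outlier). In regression samples against tumors 3 of the 7 were higher, Sgk1 (2.16), G6pc (2.15) and Tsc22d3 (1.64), where 8.45% of all genes were called higher. Of the glucocorticoid-induced enzymes, Tdo2 (1.98) and Sds (3.02) were called higher there, while Tat (0.88) did not pass.

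Arrays of a group deviated in the same direction for most of the 9 genes. Pre-tumor 3 was the highest of its group for 9 of 9 genes and pre-tumor 2 the lowest for 8. Control 2 was the lowest control for 8 genes, tumor 4 the lowest tumor for 6, and tumor 3 and regression 3 the highest of their groups for 6 each. The sum of the 7 hepatocyte markers was 2370 for pre-tumor 3, 1280 for control 2, 816 for tumor 3 and 184 for tumor 4. These were the extremes of their groups in the same direction. For pre-tumor 2 the sum was 1230, above the 1080 of pre-tumor 1 and the 879 of pre-tumor 4. For regression 3 it was 1900, below the 1920 of regression 4. The part of hepatocyte content in these deviations was not tested.

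Across the 15 arrays, which share the 4 groups, the log2 levels of the 9 genes ran together, from a Pearson r of 0.603 for Tat and Hal to 0.980 for Hpd and Fah. The genes most like each of them by Pearson r over the same arrays were Cyp2d13 (0.991) and Slco1a5 (0.989) for Tdo2, B3galt1 (0.986) and Cyp27a1 (0.983) for Aass, and Cyp2d34 and Il1rap (0.986 each) for Aadat. Hpd was nearest to Arg1 (0.978) and Gstp3 (0.969), Fah to Gstp3 (0.982) and Nat8f1 (0.977), and Hgd to Rbp4 (0.973) and Slc25a47 (0.969). Among the nearest were Dnase2b (0.952) and Susd4 (0.943) for Tat, Cyp2b9 (0.946) and Errfi1 (0.921) for Sds, and Hsd3b7 (0.938) for Hal. These are descriptions of a shared pattern over 4 groups, with no test.

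Arrays varied in quality, with 46.4% (tumor 3) to 90.8% (pre-tumor 4) of gene spots well above background. The MYC probes did not move as one: 1 of 3 was higher in tumors than in control liver (5.16 ± 0.54, adjusted p = 7.51e-06, limma) and lower in regression samples than in tumors (-4.65 ± 0.50, adjusted p = 2.87e-05), while the other 2 were at -1.18 and -1.10 in tumors against control liver (adjusted p = 0.0913 and 0.131). The first of these was lower in tumors than in pre-tumor livers (-1.27, adjusted p = 0.0434) and higher in regression samples than in tumors (1.65, adjusted p = 0.0126), and the labels do not give the species of the transgene. The probe that was higher in tumors was at 2.07 ± 0.54 in pre-tumor minus control (adjusted p = 0.847, limma). It was at 3.09 ± 0.50 in tumor minus pre-tumor (adjusted p = 0.00034). Signal of E1A spike-in spots was highest on pre-tumor 4, control 1, tumor 4 and pre-tumor 1. Without these 4 arrays, a choice made after seeing the data, 5 of the 9 genes were lower in tumors than in control liver in place of 8, with Fah (adjusted p = 0.0510, limma), Hgd (adjusted p = 0.0711) and Sds no longer called, and 3 in place of 7 were higher in regression samples than in tumors.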

How the data were processed

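Per the labels' protocols, RNA was amplified, labelled with Cy3 and hybridised to mouse 4x44K arrays. The deposited scanner files, made with Agilent Feature Extraction 10.5.1.1 per the file headers, give each spot's processed signal, an intensity on a linear scale after background subtraction. The authors also deposited a table of normalized log2 values, whose method is not given in the sources used here; gene symbols came from it. Flag columns of the deposited files (other) mark outlier spots and spots well above background.

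Here log2 processed signal minus each array's 75th percentile was used, after leaving out control spots and outlier spots (0.452% of gene values). A probe was kept when well above background on at least 3 of 15 arrays, and of several probes of a gene the brightest over all arrays stood for it. Symbols of 4456 of 21523 genes were updated through RefSeq's table; 19858 were found in it. A single limma model (version 3.58.1, R 4.3.3) held all 4 groups, with 11 residual degrees of freedom and Benjamini-Hochberg adjustment over 19328 genes, and was tested on simulated data. Arrays have no counts, so their number limits the precision.

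The members and gene lists were chosen with earlier results of these data known. Named besides the 9 genes were, per list and comparison, up to 4 genes by adjusted p among those called, a few genes of the pathways always, and the 2 genes most like each member. Some genes that this rule names are not reported here. All arrays were scanned on 1 day on 4 slides, each with at most 1 array per group. The replicate numbers were not taken to pair samples. The deposited table's probe coordinates name no build and are not printed. In the normexp alternative the median signal stood in for the mean signal, which the files do not hold.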

Additional observations from a re-analysis of the deposited data

Results flagged for a closer look

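The difference of differences, tumor minus regression less pre-tumor minus control, was past the threshold for Aadat and Hal. It was -3.44 ± 0.86 on the log2 scale for Aadat (adjusted p = 0.0245, limma) and -2.70 ± 0.58 for Hal (adjusted p = 0.0114). Its parts differ in drug, genotype and time, so it is not a test of MYC alone. Leaving out 1 array at a time gave -4.14 to -3.10 for Aadat, with adjusted p of 0.00151 to 0.0665 and the call lost without control 2, tumor 1, tumor 2 or regression 3. Aadat was also not past the threshold with normexp, at -0.55 (adjusted p = 0.269), and was not well above background on any tumor array. For Hal it gave -2.99 to -2.36, with adjusted p of 0.00840 to 0.0370. In 27 groups of 4 arrays, 1 per gene and group, no array of the 9 genes lay apart from the other 3 by Dixon's test at its 95% critical value.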

How the results depend on the processing

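Of 63 values of the 9 genes, each recomputed under up to 28 alternatives (15 of them leaving out 1 array), 1619 of 1755 kept direction and side of the threshold, 83 lost the call, 21 gained it and 32 changed sign. The cause of these changes was not tested. Counts of genes that are not named here stayed within 1.5 times their main value. The 8 genes lower in tumors than in control liver were 5 without the 4 arrays of highest E1A signal and 4 relative to the hepatocyte markers, where 1 gene was higher. The 9 lower than in pre-tumor liver were 3 relative to those markers. The 7 higher in regression samples than in tumors were 4 with median centring, 4 with the slide as a block, 3 without the E1A arrays, 0 relative to the hepatocyte markers, where 1 was lower, and 3 to 7 leaving out 1 array. The 2 called in the difference of differences were 1 with normexp, 1 with the slide as a block, 1 without the E1A arrays, 0 relative to the hepatocyte markers and 1 to 4 leaving out 1 array. With the replicate block they were 4, and Hpd in pre-tumor minus control turned to 0.05. Same-numbered samples correlated over 0.1 in 11 of 21 pairs (median 0.131, against 0.017 in 44 other pairs). Of 15 arrays 8 correlated best with one of their own number. These values cannot exclude a structure shared by number, although the numbers were not taken to pair samples. With the replicate block 2372 genes were called lower in tumor minus control, against 1354 as reported. Both alternatives on E1A arrays and hepatocyte markers were chosen after seeing the data.

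Relative to the hepatocyte markers all genes shift together, with medians of -2.41 in regression minus tumor, 2.10 in tumor minus control and 2.47 in the difference of differences, against -0.12, -0.18 and 0.18 as reported. With that common shift, signs turned in regression minus tumor for Tdo2 (-0.31), Tat (-1.41), Hpd (-0.60), Hgd (-0.57), Fah (-0.64) and Hal (-1.06), in tumor minus control for Hal (1.44), and in the difference of differences for Tdo2 (0.29), Tat (1.75), Hpd (0.83), Hgd (0.13) and Fah (0.45). In pre-tumor minus control, where no gene was called, Tdo2 turned to -0.10 with normexp, -0.06 with quantile normalization, -0.09 in the authors' table and 0 with the slide as a block, and Hpd to 0.60 without the E1A arrays. Leaving out 1 array, that difference ran from -0.35 to 0.28 for Tdo2, -0.13 to 0.52 for Fah, -0.70 to 0.23 for Hpd, -1.30 to 0.10 for Sds and -0.87 to 0.25 for Tat. Sds in regression minus pre-tumor was -0.08 with normexp, -0.02 in the authors' table and -0.78 to 0.63 leaving out 1 array, and Tat in the difference of differences -1.13 to 0.02.

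Scaling moved the split of calls: with median centring 31.3% of the genes called in tumor minus control were lower, against 42.8% as reported, and 2.25% relative to the hepatocyte markers. With median centring it was 37.6% against 48% in tumor minus pre-tumor, 27.3% against 39% in regression minus control and 36.1% against 49.5% in regression minus pre-tumor. The numbers of genes called there were 900 lower and 1974 higher with median centring and 289 lower and 12542 higher relative to the markers, against 1354 and 1812 as reported. The authors' table and normexp gave smaller differences for Aadat between tumors and each other group. Signal limits Aadat, and Tdo2 in tumor 3, to values not well above background in tumors.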
